A study of Mus musculus with 2 samples.

Results

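MicroRNA genes were examined for trimethylation of lysine 4 of histone H3 (H3K4me3) in adult neural progenitor cells of the mouse. The members were all RefSeq genes of the microRNA type on mouse chromosomes 1 to 19, apart from 9 genes left out by name (the 3 miR-9 genes, Mir17, Mir124a-1, Mir125b-1, Mirlet7a-1, Mirlet7b and Mirlet7c-2). This left 1127 of the 1228 microRNA genes in the table, which itself lists 49997 genes of every type. The rule uses annotation alone and no measured value, although it was set with earlier results of these data known. Chromatin was sonicated and immunoprecipitated for H3K4me3 in 1 library, and 1 input library of the same cells was used as background by the peak caller MACS. For both libraries the progenitors grew in N2 medium that contained EGF and bFGF, and no further treatment was applied. The H3K4me3 library is marked "con" in the labels and EGF in the file header, and the meaning of "con", the strain and the age in numbers were not given. With 1 library of each kind there is no spread between cultures to set a difference against, so none was tested, and all intervals below count genes.

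A microRNA is a short RNA that is cut from a hairpin inside a longer primary transcript, first by Drosha in the nucleus and then by Dicer in the cytoplasm. The mature strand guides Argonaute proteins to messenger RNAs, mainly through its seed, bases 2 to 8 from the 5′ end, and lowers their translation and stability. Many hairpins sit in introns of coding genes and are made with the host transcript, and others come from transcripts of their own whose start can lie far upstream of the hairpin. H3K4me3 covers the starts of active and poised genes, so a peak near a hairpin may mark the start of its own transcript or of another gene, and a hairpin far from the start of its transcript can lack a nearby peak even where the transcript is made. In the nervous system microRNAs are known for roles in the balance between progenitor division and differentiation, let-7 and miR-137 among them.

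The mature sequences below belong to the microRNA genes on which the results turn, with the seed in capitals (RefSeq, GRCm38.p6). The first set pairs 2 let-7 genes with a peak within 1 kb (let-7i and let-7e) with 2 of the same seed that had none (let-7g and let-7d).
mmu-let-7i-5p: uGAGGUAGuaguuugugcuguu
mmu-let-7e-5p: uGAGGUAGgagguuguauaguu
mmu-let-7g-5p: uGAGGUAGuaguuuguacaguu
mmu-let-7d-5p: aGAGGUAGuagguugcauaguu
The next are seeds shared by genes that all had a peak, the neighbours miR-132 and miR-212 and the unlinked miR-193a and miR-193b.
mmu-miR-132-3p: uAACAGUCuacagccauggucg
mmu-miR-212-3p: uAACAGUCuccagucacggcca
mmu-miR-193a-3p: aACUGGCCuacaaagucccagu
mmu-miR-193b-3p: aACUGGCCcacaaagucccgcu
The following had the strongest peaks away from coding gene ends, or the peaks most often referred to below.
mmu-miR-130a-3p: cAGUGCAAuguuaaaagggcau
mmu-miR-137-3p: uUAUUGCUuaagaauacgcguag
mmu-miR-22-3p: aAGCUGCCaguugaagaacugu
mmu-miR-21a-5p: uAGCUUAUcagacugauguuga
mmu-miR-26b-5p: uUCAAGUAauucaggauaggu

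The peak caller used 18156769 filtered tags of H3K4me3 and 17831241 of input, and its list comprised 19265 peaks with at least 13 tags each. The neural progenitor marker genes Sox2, Nes, Hes1, Olig2, Egfr, Fabp7 and Vim each had a peak within 1 kb of an end. The same held for 2 of 4 neuronal genes (Syt1 and Snap25), 1 of 4 blood and microglia genes (Spi1), 1 of 3 endothelial genes (Kdr), 1 of 3 muscle genes (Ckm) and none of 3 liver genes. Enrichment values per peak are the authors' own, given as fold over the input.

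A peak lay within 1 kb of 187 of the 1127 microRNA genes, 16.6% with an exact 95% interval of 14.5% to 18.9%. Such genes are called marked below. Measured with the same window, 36% of all 47042 genes on these chromosomes were marked, and 63.1% of the 20665 coding genes, whose windows are far longer. In 134 microRNA genes (11.9%) the peak lay over the hairpin gene itself. Counting members 10 kb or less apart as 1 locus, 171 of 893 loci were marked (19.1%, interval 16.6% to 21.9%), and the 187 genes had 172 different strongest peaks. The members just inside the 1 kb limit were Mir6948, Mir26b and Mir19a, at 984, 971 and 937 bp from a peak. Just outside lay Gm51281, Mir5114 and Mir301, at 1013, 1040 and 1047 bp, with fold enrichments of 14.9, 46.9 and 57.1 in the peaks concerned.

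The share of marked genes inside coding genes was 15.9% and that between genes 17.7%, with overlapping intervals. Of 781 genes lying wholly inside a coding gene 124 were marked, 15.9% (interval 13.4% to 18.6%), and of 220 overlapping no other gene 39 were, 17.7% (12.9% to 23.4%). The difference, inside minus between, was -1.85 percentage points, with an interval from -7.93 to 3.4 that covers counting error over genes only. Without the 72 members inside the single host Sfmbt2 it was -0.238 points. The remaining 126 genes overlapped a non-coding gene or only part of a coding gene, and 24 of these were marked (19%, 12.6% to 27.0%). Once peaks at an end of a coding gene were set aside, 30 of the 781 inside genes still had a peak (3.84%, 2.61% to 5.44%), against 19 of the 220 between genes (8.64%, 5.28% to 13.2%). The difference was then -4.8 points (-9.4 to -1.37). Of the genes with other overlaps 18 of 126 still had one (14.3%, 8.69% to 21.6%). Over all 1127 members 67 did (5.94%), and over all genes on these chromosomes the share was 10.3%.

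**Figure D1:**
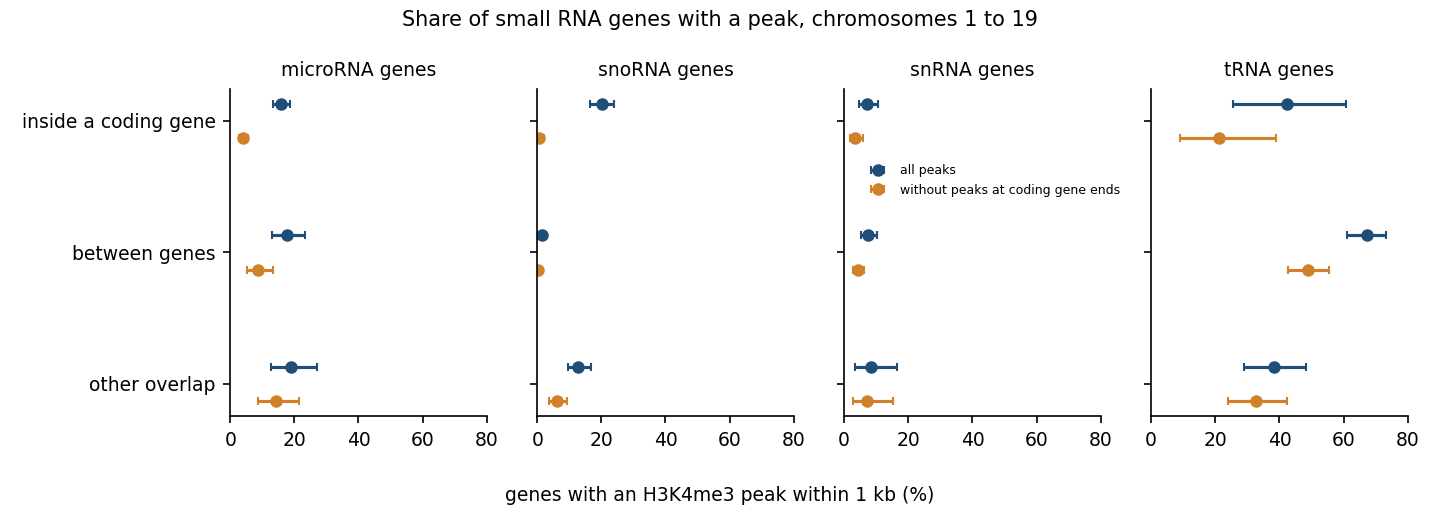
Percentage of microRNA, snoRNA, snRNA and tRNA genes with an H3K4me3 peak within 1 kb, by position relative to other genes, with all peaks (blue) and without peaks at coding gene ends (orange). Points are shares and bars exact 95% binomial intervals over genes; microRNA genes inside coding genes stand at 15.9% with all peaks and 3.84% without those at coding gene ends, and genes between genes at 17.7% and 8.64%.

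Other small RNA genes were measured with the same window. Among snoRNA genes, which guide chemical modification of ribosomal RNA, 89 of 443 inside coding genes were marked (20.1%, 16.5% to 24.1%) and 7 of 499 between genes (1.4%, 0.566% to 2.87%). Among snRNA genes, which encode RNAs of the spliceosome, the shares were 7.03% inside and 7.49% between, with overlapping intervals as for microRNA genes. Among tRNA genes they were 42.4% inside and 67.3% between. Without peaks at coding gene ends the shares inside and between were 0.677% and 0.2% for snoRNA genes, 3.36% and 4.22% for snRNA genes, and 21.2% and 49% for tRNA genes. A stretch of median microRNA gene length (80 bp) placed at each base of the chromosomes in turn would lie within 1 kb of a peak at 4.68% of positions inside coding genes and at 1.65% of positions between genes, assembly gaps included. The microRNA shares of 15.9% inside and 17.7% between were higher than both. Within the host genes of the inside members the share of positions that close to a peak averaged 13.3%, nearer to the 15.9% of the members.

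Inside coding genes, the share of marked members was highest near the start of the host. The 781 members lay in hosts with a median length of 43622 bp and at a median of 8048 bp from the nearer host end. Where the host had a peak at an end, 116 of 554 members were marked (20.9%, 17.6% to 24.6%), against 8 of 227 where it had none (3.52%, 1.53% to 6.83%). The share of host positions within 1 kb of a peak averaged 17.0% and 4.14% in the same groups. Hosts without a peak at an end were also longer (median 79036 against 38554 bp). Of the 227 members, 72 lay in Sfmbt2, 15 in Rtl1 and 7 in Nlrp12, and none of those was marked. A start of the host was listed for 638 members, and 555 of those had a host start with a peak within 1 kb. Of these 555, members less than 1 kb from the start were marked in 46 of 49 (93.9%) and members 1 to 2 kb from it in 20 of 21 (95.2%). From 2 to 5 kb the share was 28.6% (18 of 63), from 5 to 20 kb 5.41% (8 of 148), from 20 to 100 kb 2.35% (4 of 170), and beyond 100 kb 0.962% (1 of 104). Of these 104 members 61 lay in the single host Sfmbt2, and without it the share beyond 100 kb was 2.33% (1 of 43), against 2.52% (4 of 159) from 20 to 100 kb. The host start itself lies within 1 kb of a peak here by choice, so the high shares nearest to it follow in part from the windows. In all, 97 of the 555 were marked (17.5%). Members on the strand of their host were marked in 88 of 476 (18.5%), and members on the opposite strand in 16 of 86 (18.6%). Where the orientation was not known, 20 of 219 were marked (9.13%). Host positions within 1 kb of a peak averaged 16.2%, 11.3% and 7.71% in these groups, in the same order.

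**Figure D2:**
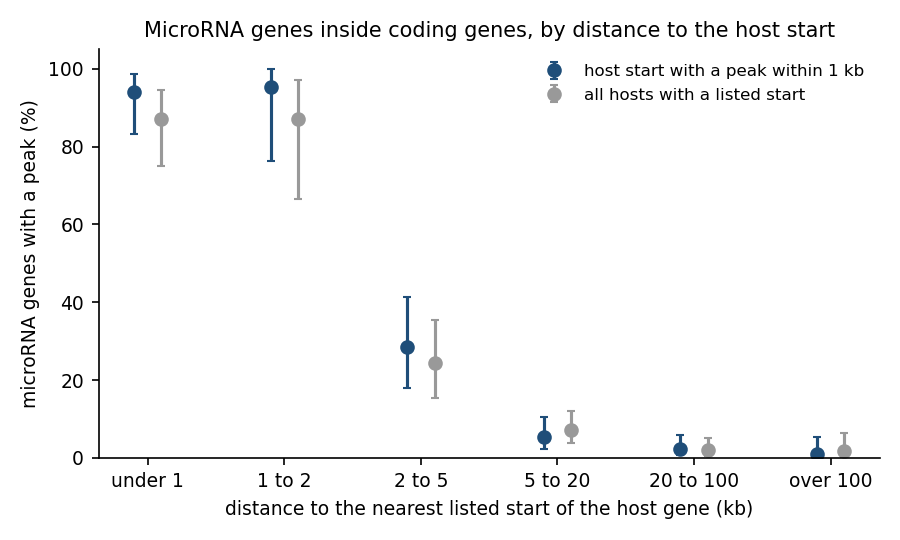
Percentage of microRNA genes inside coding genes with a peak within 1 kb, by distance to the nearest listed start of the host in kb, for hosts whose start had a peak (blue) and for all hosts with a listed start (grey). Bars are exact 95% binomial intervals over genes; the share is 93.9% below 1 kb and 0.962% beyond 100 kb for hosts with a marked start, where Sfmbt2 holds 61 of the 104 members.

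The strongest peaks at intragenic microRNA genes mostly lay at an end of the host. Mir5121 lay in Rpl13a, a ribosomal protein gene (chromosome 7, 45126918 to 45126991), under a peak of 69.4-fold enrichment and 698 tags whose summit lay 1405 bp upstream of the hairpin. Mir6538 in Rnf144a, Mir1894 in Ppp1r10, which encodes a regulatory subunit of protein phosphatase 1, and Mir6975 in Ddx39b, an RNA helicase gene, each had 59.3-fold. Mir1932 in Rnf213 and Mir1967 in Urb2 had 57.9-fold. MicroRNA genes of the lists described below had peaks of the same order. Mir26b, in the phosphatase gene Ctdsp1, lay 2701 bp from the host start and 971 bp from a peak of 51.4-fold and 366 tags. Mir191 and its neighbour Mir425 in Dalrd3 shared a peak of 50.6-fold and 546 tags, which also lay within 1 kb of ends of Impdh2 and Ndufaf3. Mir99b, Mirlet7e and Mir125a, 3 neighbours in Spaca6, shared a peak of 49.2-fold and 780 tags.

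Not all peaks at intragenic members lay at the 5′ end of the host. Mir21a, a microRNA gene active in many proliferating cells, lies at the 3′ end of Vmp1, 87023 bp from the nearest listed start of that gene, under the longest peak of any member inside a coding gene, 6501 bp with 39.3-fold enrichment and 1152 tags. Its summit lay 1764 bp upstream of the hairpin. Start sites were available for 119 of the marked inside members. Of these, 88 had a listed coding start within 1 kb of the strongest peak, and in 82 it was a start of the host itself. In 26 of the 124 marked inside members the strongest peak lay at no coding gene end. Ends are those of the annotated span, so such a peak can still lie within 1 kb of a listed host start. This held for Mir330 in Eml2, Mir6402 in Elavl2 and Mir6973b in Gfra4, among others. Mir6976 in Srf, the gene of serum response factor, had 57.1-fold with 821 tags. Here too the peak lay at a listed start of Srf, 2273 bp from the hairpin. Mir6546 in the Fc receptor gene Fcgr3 had 56.4-fold on a peak of only 331 bp and 98 tags. Others were Mir1893 in Epc1 (43.4-fold), Mir1904 in Pde4d (42.1), Mir1895 in Cxxc4 (41.2), Mir7687 in Gse1 (38.3), where the peak lay at a listed start of Gse1, and Mir7000 in Mapk8ip1 (34.7). Pde4d is 1301793 bp long, and Mir1904 lay 52081 bp from its nearer end.

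Between genes, 18 of the 39 marked microRNA genes had their strongest peak at no coding gene end. The strongest was at Mir130a (chromosome 2, 84741115 to 84741178, minus strand), with 68.7-fold enrichment and 553 tags. That peak ended 627 bp upstream of the hairpin, and its summit lay 2268 bp upstream. Mirlet7i (chromosome 10, 122985640 to 122985724, minus strand) had 50.2-fold and 1067 tags, the most of these 18, and the summit fell inside the hairpin gene, 30 bp from its 5′ end. The hairpin of let-7i, with both mature strands in capitals, reads as follows.
Mirlet7i hairpin: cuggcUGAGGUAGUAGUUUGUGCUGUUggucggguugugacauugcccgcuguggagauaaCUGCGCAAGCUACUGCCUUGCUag

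Mir212 and Mir132, neighbouring neuronal microRNA genes on chromosome 11 that are known to respond to the transcription factor CREB, lay under 1 peak of 34.0-fold and 327 tags, with the summit 527 bp upstream of Mir212 and 821 bp upstream of Mir132. Mir137 (chromosome 3, 118433857 to 118433929) had 33.3-fold and 197 tags, with the peak over the hairpin and the summit 119 bp downstream of its 5′ end. Mir193a had 31.8-fold with the summit 447 bp upstream. Mir203, known from skin, had 25.3-fold and 118 tags. Mir18 and Mir19a, of the growth-promoting miR-17 cluster whose first gene is left out here, lay 788 and 937 bp downstream of a peak of 22.4-fold and 270 tags. The weakest were Mir181a-1 and Mir181b-1, which shared a peak of 5.64-fold and 29 tags. Of the 18 genes, 10 had the summit upstream of the hairpin, 6 downstream and 2 within the gene. Over all 177 marked members with a known strand the summit lay upstream in 114, downstream in 57 and within the gene in 6. Both tallies count genes, so a summit shared by neighbours counts more than once. The peak shared by Mir203 and Gm51289, on opposite strands, counts once as upstream and once as downstream.

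**Figure D3:**
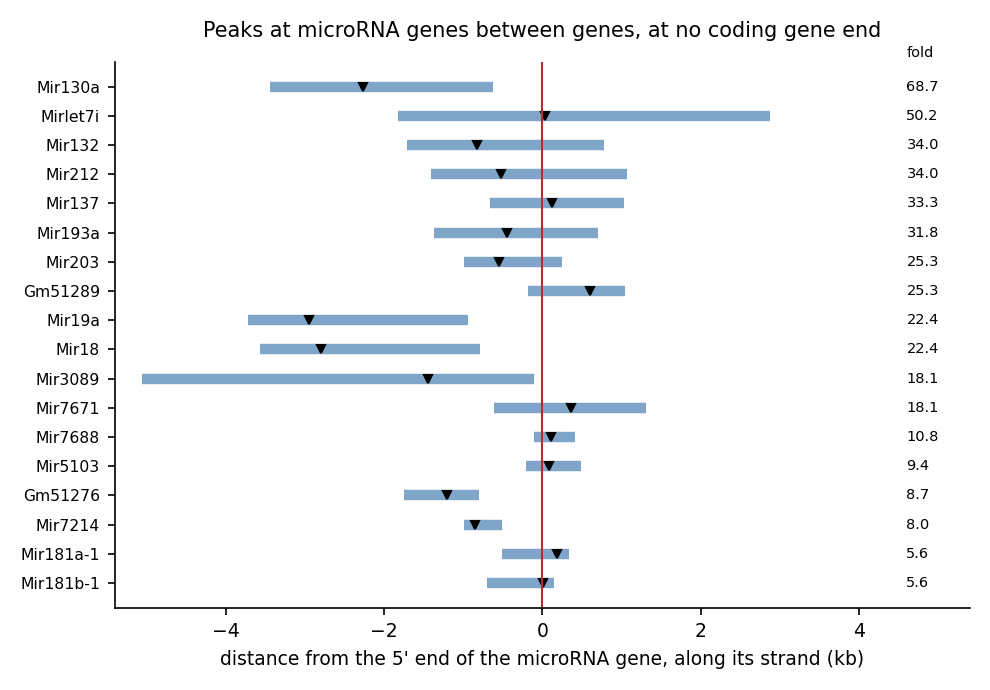
Extent of the strongest H3K4me3 peak (bars) and its summit (triangles) at the 18 marked microRNA genes between genes whose strongest peak was at no coding gene end, in kb from the 5′ end of the microRNA gene (red line) along its own strand, with the fold enrichment at the right. The peak of Mir130a ends 627 bp upstream of the gene, and that of Mirlet7i has its summit 30 bp downstream of the 5′ end; neighbours such as Mir132 and Mir212 share 1 peak.

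The other marked microRNA genes between genes lay beside coding genes. Mir484, next to Marf1, had 55.0-fold and 362 tags. Mir8105 lay beside Smarcc2, a chromatin remodeller subunit gene (53.8-fold), Mir5627 beside Dnajb9 (53.5), Mir5615-2 beside the MAP kinase kinase gene Map2k2 (52.1), Mir1945 beside Gspt1 (49.2) and Gm51271 beside Chka (47.7). These peaks were counted for the coding gene and for the microRNA gene alike, and the list of peaks cannot tell which transcript starts there.

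Members overlapping non-coding genes included the longest peaks of all. Gm51268, Gm51285 and Gm25641 lay under peaks of 27.4, 20.6 and 17.7 kb with 4359, 3180 and 3163 tags. These 3 genes, annotated with the product miR-9b, lie on the opposite strand of the 3 miR-9 genes left out by name, so their peaks are those of the miR-9 loci. Without them 21 of 123 members of this class were marked (17.1%). Mir22 lies in its own non-coding host gene, Mir22hg (chromosome 11, 75461539 to 75466690), under a peak of 50-fold and 727 tags whose summit lay 1823 bp upstream of the hairpin. Mir760 had 52.5-fold, and Mir6516 in the snoRNA host gene Snhg20 50.6-fold. Mir3569 had 51.4-fold on a peak at ends of the coding genes Kmt2b and Zbtb32. Mir8114, which overlaps no non-coding gene but part of a coding one, had 55.7-fold at an end of the glutamine synthetase gene Glul. Mir193b had 36.2-fold on a peak within 1 kb of a listed start of the long non-coding RNA gene Gm32817. Mir1949 in Snhg4 on chromosome 18 had 39.3-fold. Mir1897 lay in Sox2ot, a long non-coding RNA gene that spans Sox2, under 6.41 kb with 21.7-fold and 518 tags.

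Peaks at coding gene ends were stronger than those elsewhere in both classes. The median fold enrichment of the strongest peak was 40.8 at the 124 marked inside members (quartiles 30.9 and 49.2) and 34.0 at the 39 between (22.4 and 44.9). At members whose strongest peak lay at a coding gene end the medians were both 43.4, over 98 inside and 21 between. At no coding gene end they were 20.1 over 26 inside members and 22.4 over 18 between. For comparison, all 10854 peaks at coding gene ends on these chromosomes had a median of 38.3, and the 7855 other peaks 10.9. The lowest values were 5.57 at Mir344-2, 5.64 at Mir181b-1 and 6.03 at Mir330.

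**Figure D4:**
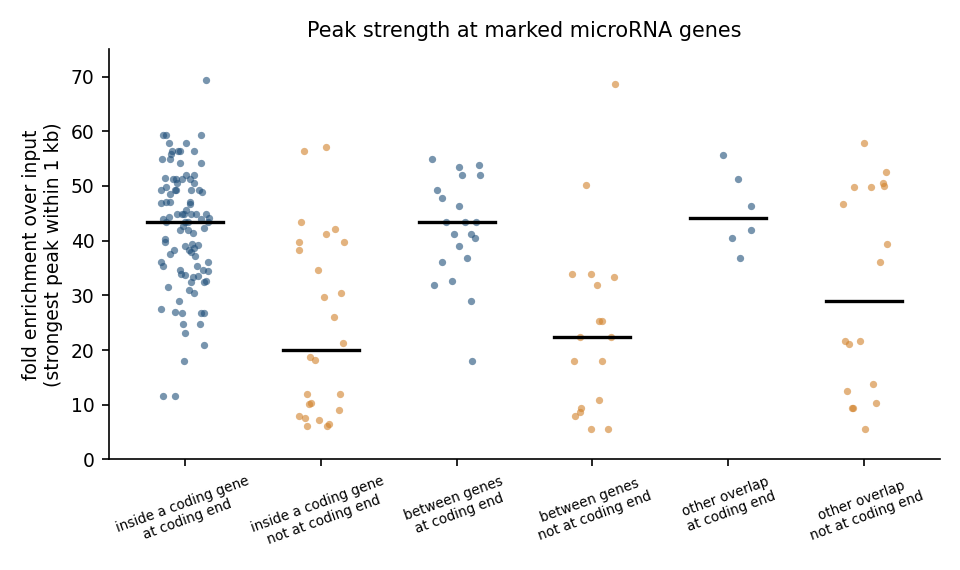
Fold enrichment over the input of the strongest peak within 1 kb of each marked microRNA gene, by class and by whether the peak lies at an end of a coding gene. Each point is 1 gene and the lines are medians; points are spread sideways for legibility. The medians are 43.4 at coding gene ends, inside and between alike, and 20.1 and 22.4 elsewhere.

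MicroRNAs were then grouped by known tissue or role, each list read against the 16.6% of all members. Of 22 brain-enriched and neuronal genes 5 were marked (22.7%, 7.82% to 45.4%), at 4 of 21 loci. These were Mir132, Mir212 and Mir137, Mir219a-1, a microRNA of myelinating cells, beside H2-Ke6 and Ring1 (43.4-fold, 461 tags), and Mir129-2 with a weak peak (9.40-fold, 50 tags). Mir124a-2 and Mir124a-3, genes of the neuronal miR-124, had no peak closer than 447 and 25.3 kb. In the let-7, miR-99/100 and miR-125 list 4 of 12 were marked (33.3%, 9.92% to 65.1%), at 2 of 7 loci. These were Mirlet7i and the Spaca6 trio, which shares 1 peak, and all 12 lay within 10 kb of a peak. Unmarked were Mirlet7a-2 at 9.74 kb and Mirlet7c-1 at 2.23 kb, among others.

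Of 17 growth and cell cycle genes 5 were marked (29.4%, 10.3% to 56.0%), at 3 of 8 loci, and 14 lay within 10 kb of a peak. The marked ones were Mir18, Mir19a, Mir21a, and the p53-responsive neighbours Mir34b and Mir34c at an end of Btg4 (26.8-fold, 127 tags). Within the miR-17 cluster the limit of 1 kb divided neighbours, since Mir20a at 1.09 kb and Mir19b-1 at 1.24 kb from the same peak were not marked. Of 34 widely expressed genes 6 were marked (17.6%, 6.76% to 34.5%), at 4 of 22 loci. These were Mir22, Mir26b, Mir191, Mir425, Mir181a-1 and Mir181b-1. Mir23a and Mir24-2, neighbours on chromosome 8, lay 3.96 and 4.25 kb from a peak.

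In the lists of microRNA genes typical of other tissues no member was marked. The lists do not hold every such gene, and Mir203, known from skin and in none of them, was marked (25.3-fold, 118 tags). The counts were 0 of 11 for the pluripotent and early embryo list (interval 0 to 28.5%), 0 of 9 for muscle (0 to 33.6%), 0 of 9 for blood and endothelium (0 to 33.6%), 0 of 14 for epithelium, liver and pancreas (0 to 23.2%) and 0 of 6 for the Hox clusters (0 to 45.9%). The lists are short, and each of these intervals reaches above the 16.6% of all members. Linked neighbours count separately in them, as in the intervals of the lists above. Mir290a and Mir291a, of an embryonic stem cell cluster, lay 56.5 and 56.2 kb from a peak. The 5 members of that list inside Larp7 (Mir302a to Mir302d and Mir367) lay closer, at 6.07 to 6.58 kb from a peak of 43.4-fold, so that 45.5% of the list lay within 10 kb, against 40.5% of all members. Mir1a-1 and Mir1a-2, of heart and skeletal muscle, lay at 66.8 and 48.7 kb, the liver microRNA gene Mir122 at 23.8 kb, Mir141 of epithelia at 4.04 kb, and Mir10a and Mir10b in the Hox clusters at 240 and 99.1 kb. The endothelial pair Mir126a and Mir126b lay 3.92 kb from a peak of 28.2-fold over their host Egfl7. Of the blood and endothelium list, 8 of the 9 members lay within 10 kb of some peak. Mir150 of that list lay just beyond the 1 kb limit, 1.08 kb from a peak of 62.9-fold.

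The largest groups of linked microRNA genes carried no mark at all. The imprinted region between Dlk1 and Dio3 on chromosome 12 held 61 members at 6 loci. None of them was marked (0 to 5.87%), and the nearest peak lay at a median of 641399 bp. Dlk1, Meg3, Rtl1, Rian, Mirg and Dio3, the genes of that region checked, had no peak over them either. The 72 members inside Sfmbt2 on chromosome 2, a Polycomb-related gene expressed in the placenta, were unmarked too (0 to 4.99%), with the nearest peak at a median of 115569 bp. Sfmbt2 itself had 1 peak over the gene (20.1-fold, 173 tags) within 1 kb of a listed start, though none within 1 kb of an end of its annotated span. Without these clusters, 10 of 36 members on chromosome 12 were marked (27.8%) and 12 of 75 on chromosome 2 (16.0%), against 10.3% and 8.16% with them. Over the 19 chromosomes the share ran from 8.16% on chromosome 2 to 29.5% on chromosome 17.

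**Figure D5:**
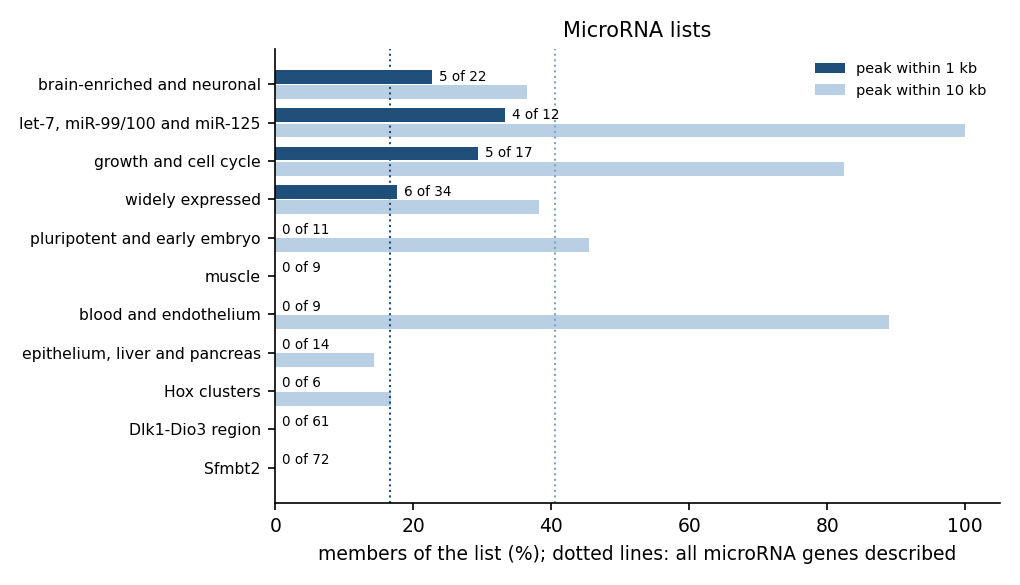
Percentage of the members of each microRNA list with a peak within 1 kb (dark bars, with counts) and within 10 kb (light bars). Dotted lines give the shares over all 1127 microRNA genes, 16.6% and 40.5%; the lists of other tissues, the Dlk1-Dio3 region and Sfmbt2 have no member with a peak within 1 kb.

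Genes with the same seed could be marked at some loci and not at others. Mature sequences were available for 958 members, and 165 seeds occurred at 2 or more loci. No gene was marked for 101 of these seeds, some were for 59, and all were for 5. These counts stand beside a marked share of 16.6% over all members, and their difference from it was not tested. Seeds of both arms of a hairpin were counted where listed. A gene without a listed arm is missing from the count of that seed, so the counts need not cover whole families. Among the 5, UACAGCU and UCGGUUA belonged only to the miR-9b genes, whose peaks are those of the miR-9 loci. Of 8 genes listed with the let-7 seed printed above, Mirlet7i and Mirlet7e were marked. The unmarked Mirlet7a-2 was not among the 8. Of 7 genes listed with the miR-130 seed, Mir130a and Mir130b were marked. Mir301b, marked under the same peak as Mir130b, was not among the 7. For miR-26, Mir26b was marked and Mir26a-1 and Mir26a-2, both with the seed of miR-26b, were not. For miR-181, with 6 genes at 3 loci, the pair on chromosome 1 was marked and the others were not. A gene with an unmarked hairpin can still yield its product from a start farther away, which these data do not show.

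Many members without a peak in the window had one farther off. The median distance from a member to the nearest peak was 17413 bp, with quartiles of 3668 and 66324 bp. Within 10 kb of a peak lay 40.6% of the inside members and 40.0% of those between genes, and within 100 kb 84.3% and 70.9%. Of 84 loci with 2 or more members, 14 had all members marked, 7 some and 63 none. The 26 pairs of members that overlap each other, 22 of them on opposite strands, were both marked in 5 cases and both unmarked in 21. Overlapping members have nearly the same window, so their like state follows largely from the marking rule.

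Marked microRNA genes were richer in G and C than unmarked ones. The hairpin sequences of marked members had a median of 57.3% G and C inside coding genes (106 genes) and 57.6% between genes (37 genes), against 52.9% (506 genes) and 47.6% (153 genes) in unmarked members. Host genes showed a like difference in their start regions, which in the table span 250 bases before to 50 after a start. For each gene the start region with the most CG steps was taken, so genes with more listed starts can reach higher counts. By this measure 421 hosts marked at an end had a median of 24 CG steps. The median was 14 in 95 hosts not marked and 15 in all 17492 coding genes listed. CG is its own complement, so the count is the same on both strands. The start region of Ctdsp1, host of Mir26b, is rich in CG and that of Mir22hg, host of Mir22, is less so, and both lay under the peaks given above. Both are shown with each CG in capitals (RefSeq, GRCm38.p6, plus strand). Ctdsp1 (chr1:74391359-74391658) held 34 CG, a number reached by 7.73% of all 32851 start regions, and Mir22hg (chr11:75461289-75461588) held 12, reached by 39.6%.
Ctdsp1: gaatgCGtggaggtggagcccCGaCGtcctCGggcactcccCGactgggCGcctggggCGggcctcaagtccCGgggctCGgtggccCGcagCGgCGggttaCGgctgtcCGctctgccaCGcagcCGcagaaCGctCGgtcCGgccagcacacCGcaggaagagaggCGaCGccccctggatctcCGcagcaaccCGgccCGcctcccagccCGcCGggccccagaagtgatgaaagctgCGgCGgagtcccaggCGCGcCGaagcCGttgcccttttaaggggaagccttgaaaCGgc
Mir22hg: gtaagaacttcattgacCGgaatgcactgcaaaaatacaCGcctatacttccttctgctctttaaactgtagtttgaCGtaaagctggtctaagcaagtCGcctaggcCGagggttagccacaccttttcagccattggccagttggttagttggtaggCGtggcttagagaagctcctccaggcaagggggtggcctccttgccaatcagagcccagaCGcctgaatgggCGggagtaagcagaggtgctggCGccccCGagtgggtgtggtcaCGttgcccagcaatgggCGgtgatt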

How the data were processed

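The deposited file is the peak list of 1 H3K4me3 library; the input library enters it through the peak caller. The authors called them with MACS 1.4.2 (file header), setting H3K4me3 against input at a p cutoff of 1e-05 with duplicate tags limited to 1. A different version, MACS2 2.1.0, and the build mm10 stand in the submitters' processing notes. The sources used here name no aligner. The deposited columns give tag counts per peak, not normalized, a score of 10 times the negative log10 p, the fold enrichment as a ratio over the input, and a percent false discovery rate. Peak starts, ends and summits in base pairs are the authors' deposited positions.

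Peaks were joined to RefSeq genes of GRCm38.p6 (the same assembly as mm10) with Python 3.11.15, pandas 2.3.3 and SciPy 1.17.1. A member was marked when a peak overlapped the gene with 1 kb either side by at least 1 bp. It was inside when it lay wholly within a coding gene, and between when it overlapped no other gene. A coding gene end means a window of 1 kb around either end. The RefSeq tables gave a strand for 972 members and matched hairpins for 911, each at the gene's own coordinates; chromosome 18 is not used in results that need strand, start sites or sequence. Intervals are exact (Clopper-Pearson) 95% intervals, and that of a difference of shares is Newcombe's, built from Wilson intervals. Both cover counting error over genes only. Genes are not replicates, and without molecular identifiers PCR copies cannot be told from separate molecules. The joining was tested on simulated data.

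The members, lists and rules were chosen with earlier results of these data known. Named by rule were, in each class, the 8 loci with the highest fold enrichment, then up to 12 members outside and 8 inside coding genes whose peak lay at no coding gene end, the 5 longest and 3 weakest peaks, the 3 members on either side of 1 kb, and in each list the marked members and the first 2 unmarked ones. Other names, such as Mir130b, Mir26a-1, Egfl7 and the genes of the Dlk1-Dio3 region, and the sequences shown were chosen after their values were seen. Mir223, Mir292a and Mir497a of the lists matched no member and were not analysed here. A marker gene and a gene named by the rule are not reported here.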

Additional observations from a re-analysis of the deposited data

Results flagged for a closer look

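Outside the members described, a peak also lay within 1 kb of 3 of the 92 microRNA genes on the X chromosome. These genes entered none of the comparisons, and the peaks stood above the input. Mir5132 and Mir718 shared a peak of 21.7-fold enrichment and 130 tags, and Mir7093 had one of 28.9-fold and 164 tags.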

How the results depend on the processing

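Of 11 settings planned and 1 added after the data were seen (without the 3 genes antisense to miR-9), the window and the choice of peaks moved the shares. Without extending the gene, 11.9% of all members, 10.5% of those inside coding genes and 14.0% of loci were marked. With 5 kb either side the shares were 29.5% of all members, 29.3% inside, 30.5% between, 29.4% with other overlaps and 32.9% of loci, and with 10 kb they were 40.5%, 40.6%, 40.0%, 40.5% and 44.7% in the same order. With the summit in place of any overlap, they were 10.9% of all members, 9.99% inside, 12.7% between and 12.8% of loci. Without peaks at coding gene ends they were 5.94%, 3.84% inside, 8.64% between and 6.61% of loci, and the median fold enrichments were 20.1 inside and 22.4 between. Counting loci in place of genes gave 19.1%. The difference, inside minus between, ran from -4.8 points without peaks at coding gene ends, the 1 setting whose interval lay wholly below 0, to 0.589 with 10 kb; all lie within the interval of -7.93 to 3.4. Classing by any overlap with a coding gene leaves no value for other overlaps. All other values stayed within the intervals of the values reported. All peaks had a false discovery rate of at most 0.32%, so a limit of 1% removed none. No paired analysis was possible because there is 1 library of each kind. Depth limits these counts: a start too weak for the p cutoff is not in the list, so an unmarked gene is one without a called peak at this depth.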
